A study of Mus musculus with 15 samples.

Results

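Circadian clock genes were examined in mammary tissue of nude mice after prolonged exposure to BDE-47, a polybrominated diphenyl ether flame retardant. The 10 genes were taken by name: Tef, Dbp and Hlf, which encode the PAR bZIP transcription factors, the nuclear receptor genes Nr1d1 and Nr1d2, the period genes Per1, Per2 and Per3, and Arntl and Clock, which encode the activator pair of the clock. All 10 were among the 52526 genes listed for every mouse. Tef was picked because it stood out in the comparison of BDE-47 with vehicle in these same data, so its difference between the groups is described here without a test. The other 9 genes were added because they belong to the same pathway, with earlier results of these data known.

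The tissue was normal left 4th mammary tissue from female athymic nude mice (nu/nu, a Foxn1 mutation that leaves the animals without a thymus and without mature T cells). In both groups dosing began in young adulthood and ran for 16 weeks through osmotic pumps under the skin. The BDE-47 group (7 mice) received BDE-47 in PEG300, 1%DMSO, and the vehicle group (8 mice) received PEG300, 1%DMSO alone. Each mouse gave 1 library, made with a kit that reads the 3′ ends of transcripts. Some mice carried a xenograft for another purpose, and which mice did so is not stated in the sample labels. The mice were housed on a light and dark cycle, and the hour at which each mouse was dissected is not given in the sources used here. Clock genes change several-fold over the day in most tissues, so treatment and hour of dissection cannot be told apart in these data.

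Values are log2 of CPM, the reads of a gene scaled to a common library total, and a gene below 1 CPM is listed at 0. Depth was 10.06 to 19.58 M reads per mouse. At this depth, genes with a mean of 20 to 40 CPM were still listed at 0 in 11.82% of their values, and the cause of these zeros was not tested. Of 9511 genes that reached 1 CPM in 7 or more mice, 0 (0%) had an adjusted p under 0.05 in limma with Benjamini-Hochberg adjustment, against 443 with an unadjusted p under 0.05. Adipocyte markers (5 or 6 of 6 genes above 1 CPM in every mouse) and luminal epithelial markers (5 of 5) were detected in all 15 mice. Vehicle 6 and vehicle 8 stood apart, with all 8 B cell markers above 1 CPM, and their adipocyte markers summed to 316.4 and 824.0 CPM against 6276 to 19840 CPM in the other vehicle mice and 2366 to 10340 CPM with BDE-47. Skeletal muscle markers summed to 73320 CPM in BDE-47 6 and to at most 132.5 CPM in the other mice. In bulk tissue, fewer cells of a type and less RNA per cell cannot be told apart.

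The circadian clock is a feedback loop of transcription. BMAL1, encoded by Arntl, pairs with CLOCK and binds E-boxes in the promoters of the period and cryptochrome genes, of Nr1d1 and Nr1d2, and of the PAR bZIP genes, while PER and CRY proteins later inhibit the pair. REV-ERB proteins, encoded by Nr1d1 and Nr1d2, repress Arntl, so Arntl peaks roughly opposite to Nr1d1 and Dbp in peripheral tissues, mammary gland and fat included. TEF, DBP and HLF bind D-boxes and pass the rhythm on to genes of metabolism and detoxification.

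Promoter windows of 250 bases before to 50 bases after each annotated start were available from RefSeq (GRCm38.p6) for 9 of the 10 genes, all but Per2, with 14 windows in all. They were searched on both strands for the E-box CACGTG and for the D-box in the forms TTANGTAA and TTACNTAA. The E-box was found in 3 of the 14 windows, from Tef and Per1, and the D-box in 1, from Per3. Of 32851 windows over all genes, 7.15% held the E-box and 2.32% the D-box. These sequences are shown because they place the letters of the clock's own elements at Tef, the gene picked from the comparison, and at the period genes. In each, capitals mark the motif in 30 bases read 5′ to 3′ on the strand of the gene, and the motif begins 127 and 138 bases before the start for Tef, 166 for Per1, and 205 and 158 for Per3.
Tef, chr15:81802534-81802563, plus strand: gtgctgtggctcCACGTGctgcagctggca
Tef, chr15:81811264-81811293, plus strand: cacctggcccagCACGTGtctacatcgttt
Per1, chr11:69098771-69098800, plus strand: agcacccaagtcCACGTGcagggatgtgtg
Per3, chr4:151044852-151044881, minus strand: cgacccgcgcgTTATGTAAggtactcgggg
Per3, chr4:151044805-151044834, minus strand: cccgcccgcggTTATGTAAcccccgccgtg
The first Tef site lies upstream of the whole gene (chr15:81802673-81826863), and the other lies within it, ahead of the start of a shorter transcript. The Per1 site also lies within the span of its gene (chr11:69095108-69109965), and both Per3 sites lie upstream of Per3 (chr4:150997018-151044707). A match of letters is a description and shows no binding.

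Tef was higher in every BDE-47 mouse than in any vehicle mouse. With vehicle it ranged from 4.20 to 6.39 log2(CPM) with a median of 5.56, and with BDE-47 from 6.49 to 7.28 with a median of 7.12. The groups did not overlap. Means were 5.45 ± 0.79 (SD, n = 8) and 7.05 ± 0.26 (SD, n = 7), a difference of 1.60 on the log2 scale or 3.03-fold. On the linear scale the medians were 47.15 and 138.9 CPM. Of the 9511 genes tested, Tef was the only 1 whose groups did not overlap (0.0105%), which is the property it was picked for. Without vehicle 6 and vehicle 8, the vehicle range was 5.13 to 6.39 and the mean 5.81 ± 0.49 (SD, n = 6), and the difference was 1.24, or 2.36-fold.

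**Figure D1:**
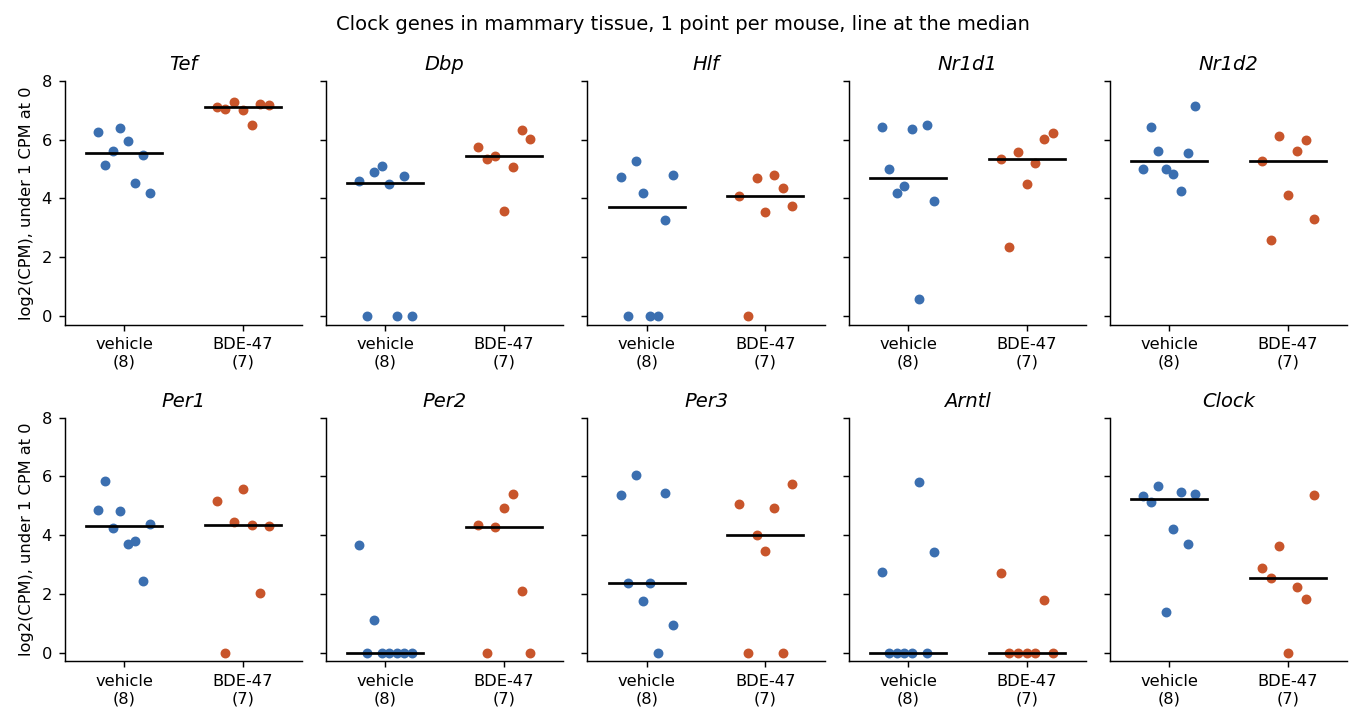
The 10 clock genes in log2(CPM), with 1 point per mouse for 8 vehicle mice and 7 BDE-47 mice and a line at each median; genes under 1 CPM sit at 0. The Tef points of the 2 groups do not overlap (up to 6.39 against 6.49 and above), whereas the points of each of the other 9 genes do.

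The group with more Tef had the lower median of adipocyte reads. Summed adipocyte markers had a median of 14280 CPM with vehicle and 8339 CPM with BDE-47. Within the vehicle group, the 2 mice with the fewest adipocyte reads, vehicle 6 and vehicle 8, also had the lowest Tef at 4.54 and 4.20. BDE-47 6, with the lowest adipocyte sum of its group, had Tef at 7.22. The part of tissue composition in the level of Tef was not tested.

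**Figure D2:**
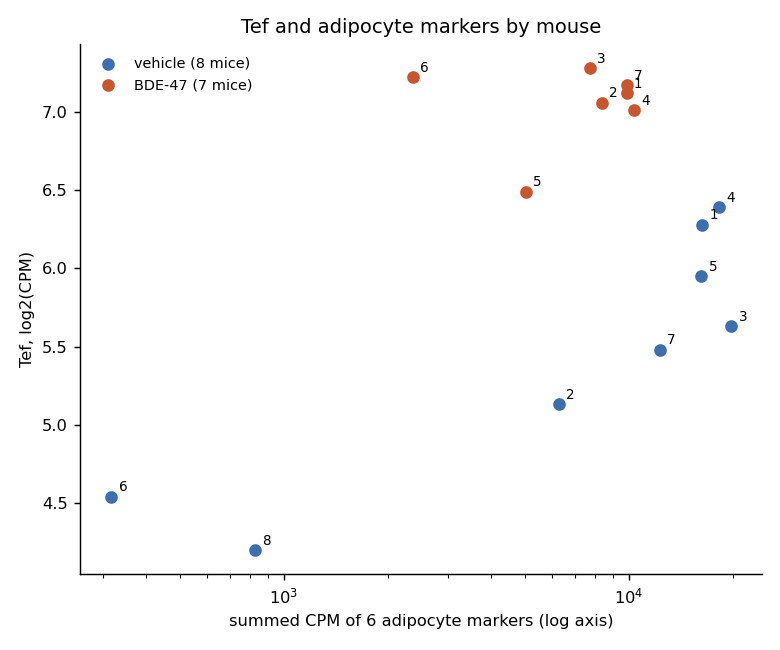
Tef in log2(CPM) against the summed CPM of 6 adipocyte markers on a log axis, with 1 point per mouse numbered by replicate. Vehicle 6 and 8 lie at the lower left at 316.4 and 824.0 CPM. All 7 BDE-47 mice lie above the vehicle mice on the Tef axis, which is the property Tef was picked for.

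Dbp, another PAR bZIP gene of the output branch, was above 1 CPM in all 7 BDE-47 mice and in 5 of 8 vehicle mice. With vehicle it ranged from 0 to 5.09 with a median of 4.54, and vehicle 2, 6 and 8 were listed at 0. With BDE-47 it ranged from 3.58 to 6.32 with a median of 5.44, and 5 of 7 mice lay above the highest vehicle mouse. The difference of means was 2.39 (SE 0.90), with a limma adjusted p of 0.982 and an exact permutation p of 0.0333 (two-sided), 1 of 9 such single-gene tests made on the clock genes. It was 1.40 without vehicle 6 and vehicle 8, and the medians differed by 0.90, since the 3 vehicle mice at 0 lower the mean more than the median.

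Hlf, the third PAR bZIP gene, overlapped fully between the groups. It ranged from 0 to 5.29 with a median of 3.73 in vehicle mice (5 of 8 above 1 CPM) and from 0 to 4.81 with a median of 4.10 in BDE-47 mice (6 of 7 above 1 CPM). Its difference was 0.83 (SE 1.08, limma adjusted p = 0.993, exact permutation p = 0.492), and no BDE-47 mouse exceeded the highest vehicle mouse. All 3 PAR bZIP genes thus had a higher mean with BDE-47, and neither Dbp nor Hlf passed the adjusted threshold.

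The REV-ERB genes, which share E-box control with Dbp, had differences within their errors or of the opposite sign. Nr1d1 ranged from 0.57 to 6.51 with a median of 4.71 with vehicle and from 2.33 to 6.24 with a median of 5.33 with BDE-47. Its difference of 0.35 (SE 0.76, limma adjusted p = 0.994, exact permutation p = 0.703) became -0.46 without vehicle 6 and vehicle 8, vehicle 6 having the lowest value. Nr1d1 and Thra overlap at their 3′ ends on opposite strands, and the strand setting of the counting is not given, so reads of Thra in the value of Nr1d1 cannot be told apart. Nr1d2 had almost the same median in both groups, 5.28 and 5.29, and ranged from 4.26 to 7.14 with vehicle and from 2.58 to 6.14 with BDE-47. In 3 of 7 BDE-47 mice it was below the lowest vehicle mouse, and the difference of means was -0.76 (SE 0.64, limma adjusted p = 0.982, exact permutation p = 0.232).

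The period genes, whose proteins inhibit the activator pair, had differences of unlike size and sign. Per2 was above 1 CPM in 2 of 8 vehicle mice, at 3.65 and 1.12, and in 5 of 7 BDE-47 mice, at 4.35, 4.29, 4.94, 5.40 and 2.10. In 4 of the BDE-47 mice it exceeded every vehicle mouse, and the other three lay within the vehicle range. The difference of means was 2.41 (SE 0.97), with a limma adjusted p of 0.982 and an exact permutation p of 0.025. As for Dbp, this exact p is not adjusted for the number of clock genes tested. Per2 reached 1 CPM in 7 mice, the fewest the filter allows, and most of them were BDE-47 mice. It thus entered limma through the group where it is high, and its values are a description.

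Per1 had medians of 4.30 with vehicle (2.45 to 5.84) and 4.34 with BDE-47 (0 to 5.56). Its difference of means was -0.57 (SE 0.85, limma adjusted p = 0.994, exact permutation p = 0.511), and 2 BDE-47 mice lay below the lowest vehicle mouse. Per3 covered nearly the same range in both groups, from 0 to 6.05 with vehicle (median 2.36) and from 0 to 5.75 with BDE-47 (median 3.99). Its difference was 0.28 (SE 1.12, limma adjusted p = 0.994, exact permutation p = 0.812) and -0.57 without vehicle 6 and vehicle 8. Both differences were smaller than their errors.

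Clock, one partner of the activator pair, had a lower mean with BDE-47. It ranged from 1.40 to 5.68 with a median of 5.24 in vehicle mice and from 0 to 5.38 with a median of 2.53 in BDE-47 mice. The groups overlapped, since vehicle 4 lay at 1.40 and BDE-47 7 at 5.38. The difference was -1.91 (SE 0.92, limma adjusted p = 0.982, exact permutation p = 0.0339) and -1.61 without vehicle 6 and vehicle 8. As for Dbp and Per2, this exact p is not adjusted for the number of clock genes tested. Clock has little daily rhythm in most tissues, unlike its partner.

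Arntl, the partner with the strong rhythm, was mostly under the floor and did not enter limma. It was above 1 CPM in 3 of 8 vehicle mice, at 2.73, 5.80 and 3.44 in vehicle 1, 6 and 8, and in 2 of 7 BDE-47 mice, at 2.71 and 1.80. The difference of means was -0.85 with an exact permutation p of 0.4, and it turned to 0.19 without vehicle 6 and vehicle 8. Vehicle 6, with the highest Arntl of the 15 mice, also had the lowest Nr1d1 (0.57) and Bhlhe41 (1.13), and its Dbp, Hlf, Per2 and Per3 were listed at 0. Zeros of Dbp, Hlf and Per2 were shared with other vehicle mice: of 8, Dbp and Hlf were above 1 CPM in 5 each, Per2 in 2 and Per3 in 7. Vehicle 6 showed Arntl high with several Dbp-phase genes low, and it also had the fewest adipocyte reads and all 8 B cell markers. Whether its clock genes follow hour of dissection or tissue composition was not tested.

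Counted over the 9 clock genes tested, 3 were more than 2-fold higher with BDE-47 (Tef, Dbp and Per2) and 1 was more than 2-fold lower (Clock). Over all genes tested, 13.0% were that much higher and 13.2% that much lower. The median difference was 0.35 for the 9 genes and -0.02 for all genes tested, and of the 9 genes 6 had a higher and 3 a lower mean. Since Tef set the choice of the list, and Per2 passed the filter only through its BDE-47 mice, these counts are a description.

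**Figure D3:**
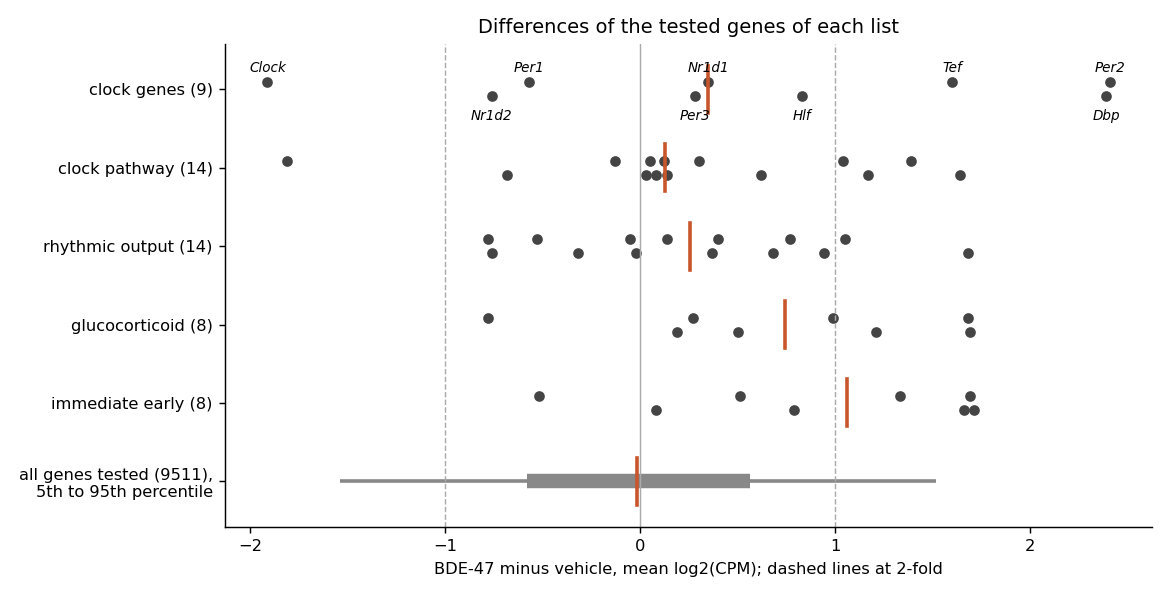
BDE-47 minus vehicle in mean log2(CPM) for the tested genes of each list, with 1 point per gene, red bars at the medians and dashed lines at 2-fold; the grey bar gives the 5th to 95th percentile (-1.54 to 1.52) and the 25th to 75th percentile of all 9511 genes tested. Per2, Dbp, Tef and Clock lie beyond the 5th to 95th percentile and the other 5 clock genes lie within it.

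A shift in hour of dissection would be expected, from textbook knowledge, to move genes in phase with Dbp against those in phase with Arntl. An index was therefore computed for each mouse as the mean log2(CPM) of 10 Dbp-phase genes (Tef, Dbp, Hlf, Nr1d1, Nr1d2, Per1, Per2, Per3, Ciart and Bhlhe41) minus that of 5 genes of the opposite arm (Arntl, Clock, Npas2, Cry1 and Nfil3), called Arntl-phase genes here although Clock itself has little rhythm. It ranged from -1.60 to 3.27 with a median of 2.20 in vehicle mice and from 1.53 to 4.39 with a median of 3.68 in BDE-47 mice. The groups overlapped, with 4 of 7 BDE-47 mice above the highest vehicle mouse and 6 of 7 above the vehicle median. Means were 1.83 ± 1.61 (SD, n = 8) and 3.14 ± 1.07 (SD, n = 7), a difference of 1.31. No test was made because Tef was picked on this comparison, and the difference was 1.22 with Tef left out and 0.97 with Clock left out, the latter an alternative chosen after seeing the data. Without vehicle 6 and vehicle 8 it fell to 0.61, with a vehicle mean of 2.54 ± 0.75 (SD, n = 6), and to 0.27 with Clock also left out.

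Of the 10 Dbp-phase genes, 8 had a higher mean with BDE-47 and 2 a lower one (Nr1d2 and Per1). Of the 5 Arntl-phase genes, 4 had a lower mean and 1 (Nfil3) a higher one. Without vehicle 6 and vehicle 8 the split was 6 higher and 4 lower in the first arm, where Nr1d1 and Per3 changed sign, and 3 higher and 2 lower in the other, where Arntl and Cry1 changed sign. Several of these genes were near the floor: Ciart, a clock repressor, was above 1 CPM in 1 mouse, Npas2, a paralog of Clock, in 3, Nfil3, a repressor acting at D-boxes, in 5 and Cry1, a partner of the PER proteins, in 6. Tef, Dbp, Per2 and Clock had the same direction with and without these 2 vehicle mice, as did Hlf, Ciart, Bhlhe41 and Npas2. Nr1d2, Per1 and Nfil3 also kept their direction, which over all mice was opposite to that of the rest of their arms. The other 4 of the 15 genes changed direction.

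**Figure D4:**
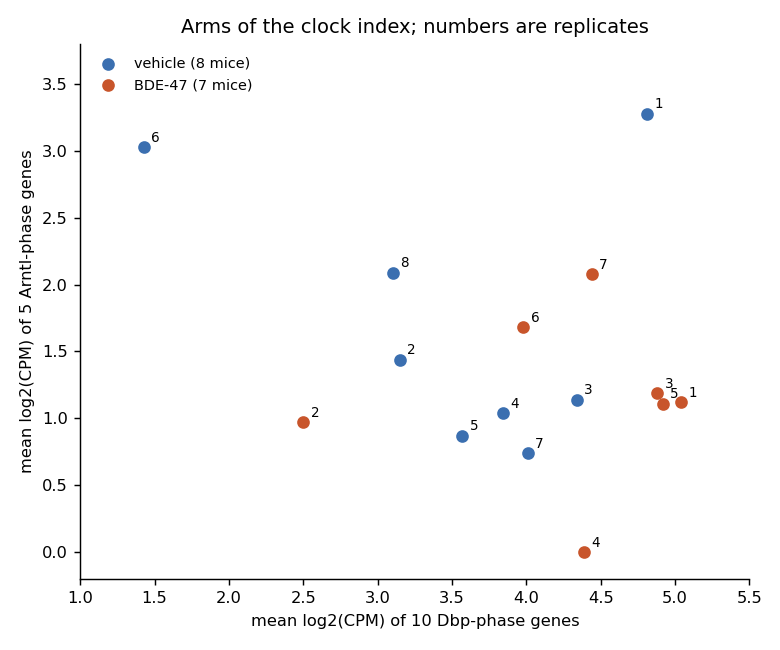
Mean log2(CPM) of the 10 Dbp-phase genes (horizontal) against that of the 5 Arntl-phase genes (vertical), with 1 point per mouse numbered by replicate. Vehicle 6 sits alone at the upper left (1.43 and 3.03), and the remaining mice of the 2 groups overlap.

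Covariation between mice was examined with group means removed, which takes out the difference between BDE-47 and vehicle. Tef and Dbp varied together over the 15 mice (Pearson's r = 0.824, permutation p = 0.00015, adjusted p = 0.00675 over 45 pairs; Spearman's rho = 0.842, permutation p = 0.00019, adjusted p = 0.00855). It was the only 1 of the 45 pairs with an adjusted p under 0.05. Within the vehicle mice r was 0.871 (adjusted permutation p = 0.315) and within the BDE-47 mice 0.373 (adjusted permutation p = 0.771). Both genes spread more among vehicle mice (SD 0.79 for Tef, 2.47 for Dbp) than among BDE-47 mice (SD 0.26 and 0.90). The permutation over all 15 mice treats the groups as alike in spread, so its p rests mostly on the vehicle mice. Vehicle 6 and vehicle 8 were the mice farthest from the median of Tef, and without them r was 0.62 and its adjusted p 0.565. The call was also lost without vehicle 8 alone (r = 0.772, adjusted permutation p = 0.063), and the family of 45 pairs was chosen after seeing the data. Sod1, Aldh6a1 and Gys1, which are not clock genes and are described below, had a higher r with Tef than Dbp did (0.898 to 0.919, among 9510 genes compared). Of the 9510 genes, 68 had an r of 0.8 or above with Tef, Dbp among them, and 38 had such an r with Dbp. An r of this size with Tef was therefore not particular to Dbp.

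**Figure D5:**
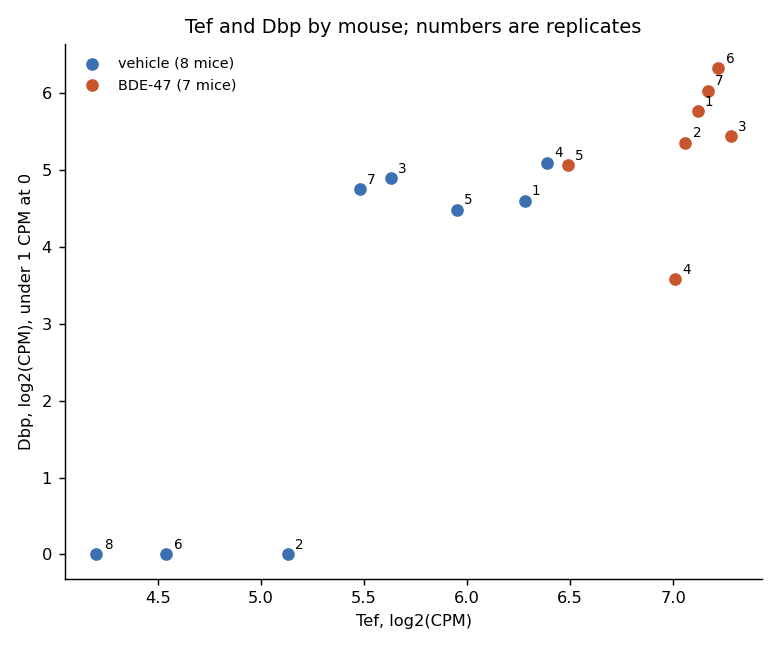
Dbp against Tef in log2(CPM), with 1 point per mouse numbered by replicate; Dbp under 1 CPM sits at 0. Vehicle 2, 6 and 8 have Dbp at 0 and the 3 lowest Tef values, and 5 of the 7 BDE-47 mice lie above every vehicle mouse on both axes.

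Arntl was expected to run opposite to its repressors and to the output genes. With group means removed, r with Clock, which lies in the same arm as Arntl and was not expected to run opposite, was 0.269. Over all 9 pairs of Arntl with another clock gene, r was below 0 for 5. The strongest were with Tef (r = -0.479, permutation p = 0.0717; rho = -0.36, permutation p = 0.19), Nr1d1 (r = -0.474, permutation p = 0.0717; rho = -0.3, permutation p = 0.275) and Dbp (r = -0.45, permutation p = 0.0904; rho = -0.465, permutation p = 0.0824). Adjusted over the 9 pairs, each Pearson p was 0.271 and each Spearman p 0.621. Without vehicle 6 and vehicle 8, r turned to 0.377, 0.345 and 0.248, and 0 of 9 pairs were below 0. Arntl was listed at 0 in 10 of the 15 mice, and without vehicle 6 and vehicle 8 only 3 mice had a value above 0, so the signs of these r rest on few mice and are a description. Among the 28 pairs of Dbp-phase clock genes, r was above 0 in 25 with a median of 0.36, and in 21 with a median of 0.29 without these mice. Between the arms, the 16 pairs had a median r of -0.02, and of 0.16 without these mice. Shares over pairs of other genes are not given here for comparison, so these counts and medians are a description.

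The genes whose levels followed Tef most closely over the 15 mice, with group means removed, were Sod1 (r = 0.919), a superoxide dismutase, Aldh6a1 (r = 0.911), an enzyme of valine breakdown, and Gys1 (r = 0.898), a glycogen synthase. Those most like Dbp were Decr1 (r = 0.918), an enzyme of unsaturated fatty acid oxidation, Aldh6a1 (r = 0.904) and Nbea (r = 0.873), which encodes a protein of vesicle trafficking. For Arntl they were Rbm4b (r = 0.881), Zfp628 (r = 0.872) and Btaf1 (r = 0.849), each above 1 CPM in 7, 7 and 10 mice. No clock gene was among these. Aldh6a1 was shared by Tef and Dbp, and its r with Tef was 0.968 within vehicle mice and 0.121 within BDE-47 mice. Unlike Tef, Sod1 had a slightly lower mean with BDE-47, by a difference of -0.31.

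Other genes of the clock pathway mostly differed by less than 2-fold. Of 22 genes, 14 were tested, 11 had a higher and 3 a lower mean with BDE-47 (4671 and 4840 of all genes tested), 4 were more than 2-fold higher and 1 more than 2-fold lower with BDE-47 (13.0% and 13.2% of all genes tested), the median difference was 0.13, and 0 had an adjusted p under 0.05 in limma (0 also at an unadjusted p under 0.05). Bhlhe41, an E-box repressor, differed by 1.17 (SE 0.62), and Cry2, a repressor that pairs with PER, by 1.04 (SE 1.03). Timeless, better known in mammals for its role at the replication fork, differed by -1.81 (SE 1.00), and reached 1 CPM in 6 of 8 mice with vehicle and in 2 of 7 with BDE-47. Gsk3b and Btrc, a kinase and a ubiquitin ligase subunit that act on clock proteins, differed by -0.68 (SE 0.56) and -0.13 (SE 1.02). The limma adjusted p was 0.982 or above for each of these genes. Bhlhe41 differed by only 0.28 without vehicle 6 and vehicle 8.

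Genes known as rhythmic outputs or PAR bZIP targets were tested in 14 of 15 cases, and 2 were more than 2-fold higher and 0 lower (13.0% and 13.2% of all genes tested), with a median difference of 0.25. Tsc22d3, a glucocorticoid-induced gene that is rhythmic in many tissues, ranged from 2.57 to 5.70 with a median of 4.42 in vehicle mice and from 4.47 to 7.14 with a median of 6.27 in BDE-47 mice. In 5 of 7 BDE-47 mice it was above every vehicle mouse, with a difference of 1.68 (SE 0.60, limma unadjusted p = 0.00806, adjusted p = 0.982, exact permutation p = 0.00373). That exact p is the lowest of those computed for the genes of all lists described here and below, and it is not adjusted for their number. Por, the electron donor of cytochrome P450 enzymes and a PAR bZIP target, differed by 1.05 (SE 0.76), a value that was -0.22 without vehicle 6 and vehicle 8. Wee1, a mitotic kinase under clock control, differed by 0.94 (SE 0.91). The lowest of the list were Klf9, a glucocorticoid-responsive transcription factor, with -0.78 (SE 0.69), Rbm3, a cold-inducible RNA-binding protein gene, with -0.76 (SE 0.89), and Pdk4, which encodes an inhibitor of pyruvate dehydrogenase, with -0.53 (SE 1.09). In limma 0 of the 14 had an adjusted p under 0.05, and 1 had an unadjusted p under 0.05.

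Glucocorticoids and handling move some clock genes as well, Per1 among them, so genes of these responses were listed beside the clock. Of 9 glucocorticoid-responsive genes, 8 were tested, 3 were more than 2-fold higher (Tsc22d3, Sgk1 and Dusp1) and 0 lower (13.0% and 13.2% of all genes tested), with a median difference of 0.74. Sgk1, a serum and glucocorticoid-regulated kinase, differed by 1.21 (SE 1.11), and Dusp1, a phosphatase of MAP kinases, by 1.69 (SE 0.93). Of 10 immediate early genes, 8 were tested, 4 were more than 2-fold higher (Fos, Egr1, Nr4a1 and Dusp1) and 0 lower (against the same shares), with a median difference of 1.06. Fos, an AP-1 subunit, ranged from 0 to 5.91 with a median of 3.71 in vehicle mice and from 3.14 to 6.81 with a median of 5.12 in BDE-47 mice, a difference of 1.71 (SE 0.84). Egr1, a zinc finger factor, differed by 1.66 (SE 0.81) and Nr4a1, an orphan nuclear receptor, by 1.33 (SE 1.13), and Zfp36, which encodes an RNA-binding protein that destabilizes transcripts, had the lowest value with -0.52 (SE 0.91). Tsc22d3 and Klf9 are on the output and glucocorticoid lists, and Dusp1 is on the glucocorticoid and immediate early lists, so the counts are not separate. In limma 0 genes of either list had an adjusted p under 0.05, and 1 and 2 had an unadjusted p under 0.05, against 443 of 9511 over all genes. The part of these responses in the levels of the clock genes was not tested.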

How the data were processed

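Libraries of left 4th mammary tissue from 15 mice (8 vehicle, 7 BDE-47) were grouped by the treatment in the sample labels. The authors made 3′ end libraries (QuantSeq 3′ FWD), aligned reads with STAR 2.5.3a to GRCm38 (submitters' processing notes) and normalized to CPM; the values the authors deposited are log2 of CPM, with genes under 1 CPM at 0. Strand setting and counting rule are not given in the sources used here. Depth was recovered from the spacing of low CPM values (whole reads within 0.1 read).

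Of 52636 entries, 110 with a repeated name were dropped, keeping the entry of highest mean. Genes reaching 1 CPM in 7 or more mice were tested with limma 3.58.1 (trend, R 4.3.3) on the deposited log2 values, without covariates, since xenograft status per mouse is not in the labels. Single genes were also compared by exact permutation of the mice (two-sided, 6435 regroupings, smallest possible p 0.000155), and correlations with 100000 permutations. Other work used Python 3.11.15, numpy 2.4.6, scipy 1.17.1, pandas 2.3.3 and matplotlib 3.10.9. Scripts were tested on simulated data.

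The clock genes, lists and tests were chosen with earlier results of these data known. Named genes are all clock genes, the genes of the index, the 3 highest and 3 lowest differences of each list, every list gene past 2-fold, and the 3 genes most correlated with Tef, Dbp and Arntl. Naming the list genes past 2-fold that are outside those 3 (Cry2 and Nr4a1) was decided after their values were seen. Some genes that the rule would name are not reported here. P-values measure the spread between single libraries of separate mice. Alternatives were another pseudocount, scaling, filters, covariates, a replicate block and each mouse left out.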

Additional observations from a re-analysis of the deposited data

Results flagged for a closer look

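Several values, given here, stood apart from the rest of their group by Dixon's criterion among 22 groups of clock gene or index values examined, where chance flags about 1 in 20. Tef in BDE-47 5 was the lowest of its group at 6.49 log2(CPM), against 7.01 and above in the other 6 mice. Hlf in BDE-47 2 was listed at 0.00, and the same mouse had the lowest Nr1d1, Nr1d2 and Per1 of its group. Nr1d1 in vehicle 6 was 0.57, and the clock index of that mouse was -1.60. Per2 in vehicle 1 was 3.65, the highest of a group with 6 of 8 mice listed at 0. Clock in vehicle 4 was 1.40, the lowest of the vehicle mice.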

How the results depend on the processing

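The median SD of the genes tested was 1.82 over the 15 mice, and the part of depth in this spread was not tested. Values at 0 make differences of means depend on how many mice fell under 1 CPM. The count of genes with an adjusted p under 0.05 in limma was 0 in every setting run, with the lowest adjusted p between 0.477 and 0.999 and 345 to 573 genes at an unadjusted p under 0.05. When single mice were omitted, the index difference ranged from 0.82 to 1.58, the clock genes past 2-fold from 4 to 5, the clock pathway genes past 2-fold from 4 to 5, and the pairs of Arntl with r below 0 from 3 to 7. The lowest of these, 0.82 and 3, came without vehicle 6.

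Without vehicle 6 and vehicle 8, 3 clock pathway genes were past 2-fold and 0 of 9 pairs of Arntl had r below 0. That count of pairs was 8 with the number of genes above 1 CPM as a covariate and 2 within BDE-47 mice. Signs turned without vehicle 6 and vehicle 8 for Nr1d1 (-0.46), Per3 (-0.57), Arntl (0.19), Cry1 (0.22) and Por (-0.22), and for r of Arntl with Tef (0.377), Dbp (0.248) and Nr1d1 (0.345). Within BDE-47 mice those r were 0.274, 0.461 and 0.289. With the log2 ratio of mean CPM, Nr1d1 was -0.05 and Per3 -0.004, and with medians Nr1d2 was 0.004 and Per1 0.03. With single mice left out, Nr1d1 ranged from -0.23 to 0.80, Per1 from -0.88 to 0.05, Per3 from -0.15 to 0.83, Btrc from -0.69 to 0.18 and r of Arntl with Nr1d1 from -0.6 to 0.0614. The cause of these changes was not tested. Tef differed by 1.24 to 1.73 over the settings run. Since its groups do not overlap, the property it was picked for, leaving mice out could not turn its sign, so this range is a description.

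The replicate numbers were not used as pairs in the main fit. Over the genes tested, deviations of equally numbered mice correlated at -0.018 to 0.053. A pairing that acts on few genes could not be seen this way. Vehicle 8 has no equally numbered BDE-47 mouse, so the replicate block dropped it (14 mice), and its differences equal those without vehicle 8 alone. With it, Per3 was -0.02 and Btrc 0.07, 5 clock genes and 4 clock pathway genes were past 2-fold, and 0 genes had an adjusted p under 0.05.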
